A study of Mus musculus with 24 samples.

Results

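Transcripts of 10 genes that handle iron and heme were followed in 24 RNA-seq libraries of mouse choroid. The choroid is the vascular layer behind the retina, but the study's methods use the name for all that was left of the eye cup once the retina was taken off, that is, retinal pigment epithelium and sclera as well. The genes were Hmox1, Fth1, Ftl1, Slc40a1, Cp, Heph, Trf, Tfrc, Slc11a1 and Hpx, chosen by name for their roles out of 56065 genes in the table. The choice was made with earlier results of these data known. All 10 genes were above the minimum level for testing. The libraries fell into 4 groups: wild type without laser (n = 4), wild type with laser (n = 9), Ceacam1-/- without laser (n = 4) and Ceacam1-/- with laser (n = 7). Ceacam1-/- mice carry a constitutive homozygous deletion of exons 1 and 2 of Ceacam1, which encodes a cell adhesion molecule, and wild type mice were their littermates on the C57BL/6J background. In the laser groups each eye received 6 burns from a frequency-doubled Nd:YAG laser (150 mW for 100 ms at a spot size of 200 µm), a treatment used to induce choroidal neovascularization, the growth of new vessels from the choroid. Mice of both sexes were used, aged 6 to 8 weeks unless stated otherwise in the study, and the interval between laser and tissue collection was not given in the sources used here. The labels did not say whether each library was a separate mouse, so the p-values measure the spread between these libraries. In bulk tissue, fewer cells of a type and less RNA per cell cannot be told apart.

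Iron reaches cells bound to transferrin (Trf), which is taken up through the transferrin receptor (Tfrc), and surplus iron is stored in ferritin, a shell of heavy (Fth1) and light (Ftl1) subunits. Iron leaves cells through ferroportin (Slc40a1) and is oxidized outside by ceruloplasmin (Cp) or hephaestin (Heph). Heme from dying red cells is carried by hemopexin (Hpx) and broken down by heme oxygenase 1 (Hmox1), an enzyme induced by heme and oxidative stress, and Slc11a1 moves iron and other metals out of the phagosomes of macrophages. In the eye, the retinal pigment epithelium makes transferrin and passes iron between the choroid and the photoreceptors.

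Several of these messages are also controlled after transcription by iron responsive elements, short hairpins that are bound by the iron regulatory proteins when iron is low. In a 5′ UTR the bound hairpin blocks translation, and in the 3′ UTR of Tfrc it protects the message from decay. RNA-seq reads the level of a message and not its translation. The hairpins of the genes whose levels are compared here are shown because they link the storage, export and uptake genes. The sense strand of each transcript was searched for the 17 letters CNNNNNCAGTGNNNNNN, in which the 5 bases after the first C had to pair with the last 5 bases (A-T, G-C or G-T). The match was found in 0.116% of the 5′ UTRs of 20672 canonical coding transcripts and in 0.603% of 20722 3′ UTRs, and of the 10 genes it was found in the UTRs of Fth1, Ftl1, Slc40a1 and Tfrc. A match is a description and not a measured binding site. The sequences below are 30 bases of the GRCm39 assembly each, written 5′ to 3′ on the strand of the gene, with the hairpin loop in capitals.
Fth1 5′ UTR, exon 1, chr19:9960096-9960125, plus strand: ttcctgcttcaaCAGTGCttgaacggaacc
Ftl1 5′ UTR, exon 1, chr7:45109202-45109231, minus strand: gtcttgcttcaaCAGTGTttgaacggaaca
Slc40a1 5′ UTR, exon 1, chr1:45964624-45964653, minus strand: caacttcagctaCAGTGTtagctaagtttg
Tfrc 3′ UTR, exon 19, chr16:32450037-32450066, plus strand: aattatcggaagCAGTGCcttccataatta
Tfrc 3′ UTR, exon 19, chr16:32450416-32450445, plus strand: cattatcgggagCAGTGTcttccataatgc
Tfrc 3′ UTR, exon 19, chr16:32450481-32450510, plus strand: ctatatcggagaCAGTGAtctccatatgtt
Tfrc 3′ UTR, exon 19, chr16:32450528-32450557, plus strand: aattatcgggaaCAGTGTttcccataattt
Fth1, Ftl1 and Slc40a1 thus held 1 match each near the start of the message, and the 4 matches of Tfrc lay in its last exon.

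The values are normalized counts, that is, estimated reads scaled for library size and transcript length. They summed to between 23704346 and 28563124 per library, except for 35094410 in library 25 (Ceacam1-/- without laser). Ceacam1 itself was at 958, 5027, 1242 and 4596 normalized counts in wild type libraries without laser and at 405, 505, 508 and 1171 in Ceacam1-/- libraries without laser. With laser it ranged from 774 to 8367 (median 996, n = 9) in wild type and from 67.8 to 905 (median 335, n = 7) in Ceacam1-/-. Reads of Ceacam1 were thus present in every Ceacam1-/- library, and the genotypes overlapped both without and with laser. The value covers the whole gene, including exons outside the deletion, so it does not check the labels library by library. The difference was 3.87-fold without laser (adjusted p = 0.999) and 4.49-fold with laser (adjusted p = 0.104), lower in Ceacam1-/- and past the threshold in neither.

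Markers of the tissue were present: no listed marker of endothelium (most abundant Plvap), melanocytes (Dct) or pigment epithelium (Rgr) was at 0 throughout any group. Genes of neighbouring tissues were abundant too. The 8 listed skeletal muscle genes, led by Atp2a1, summed to a mean of 535948 normalized counts in wild type without laser. Photoreceptor genes separated 5 libraries from the rest. The 10 listed photoreceptor genes summed to 566673 in library 21 (wild type without laser), 610555 in library 23 (Ceacam1-/- without laser) and 1020036, 574897 and 1049413 in libraries 14, 15 and 18 (Ceacam1-/- with laser). The next highest sum was 267036, in library 27. No wild type laser library was among the 5, whereas 3 of 7 Ceacam1-/- laser libraries were. These 3 also had the highest library numbers of their group, in which the others were 4 to 7. Laser libraries were numbered from 1 to 19 and those without laser from 21 to 28. The labels do not say what the numbers stand for, and their part in the values was not tested. Library 23 also had the highest sum of the 6 myelin and Schwann cell genes, 561011. Several values are therefore also given without these 5 libraries, a choice made after seeing the data.

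The 10 genes spanned a wide range of levels. Per kilobase of the canonical transcript, the mean in wild type without laser was 84869 ± 20644 normalized counts (SD, n = 4) for Fth1, 55083 ± 25071 for Ftl1 and 29286 ± 13452 for Trf. A second tier held Cp at 570 ± 105, Tfrc at 412 ± 156, Slc40a1 at 214 ± 55.2 and Hmox1 at 199 ± 53.9 per kilobase. Slc11a1 at 82.3 ± 26.2, Heph at 66.8 ± 21.1 and Hpx at 12.6 ± 4.44 per kilobase were the lowest. Within these tiers the SD ranges of neighbours met, apart from Hpx, which lay below Heph. After laser in wild type, Hmox1 moved from the seventh to the fourth place in this order, at 1343 ± 593 per kilobase (n = 9), while Ftl1 at 105123 ± 31371 stood beside Fth1 at 95318 ± 18645. The SD range of Hmox1 met that of Cp, next in the order at 889 ± 254, so their places are not resolved.

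**Figure D1:**
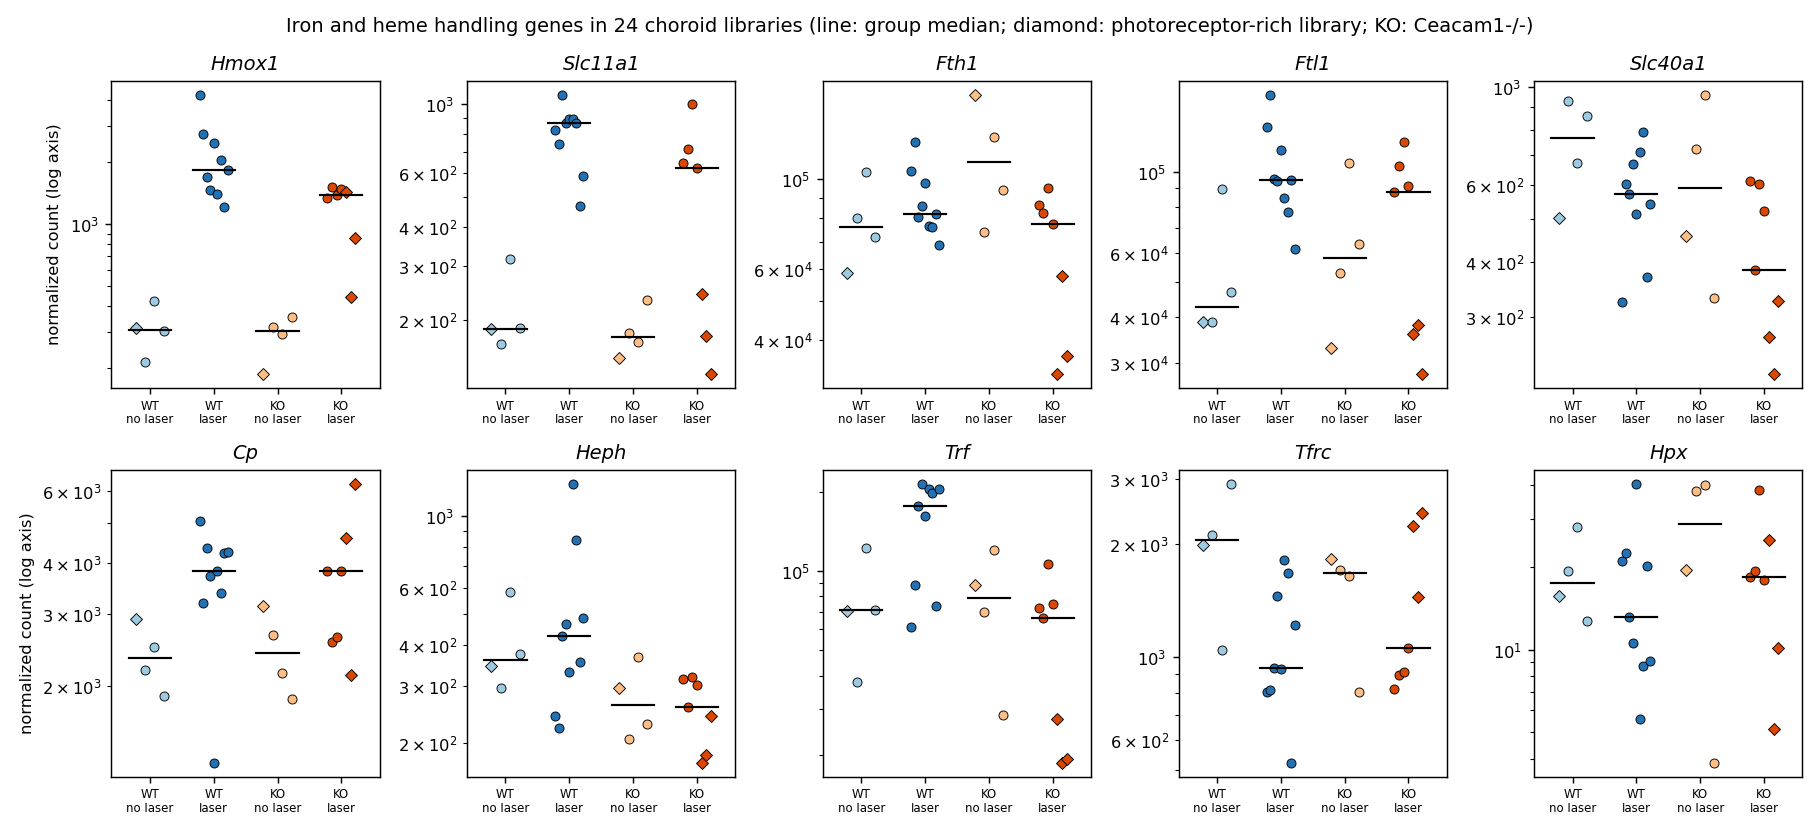
Normalized count of each of the 10 genes (log axis) in each library, by group, with the median of the group as a line and the 5 photoreceptor-rich libraries as diamonds. Hmox1 lay between 188 and 422 in all libraries without laser and between 442 and 4232 in all libraries with laser, and the 3 diamonds of the Ceacam1-/- laser group were its lowest points for Fth1, Trf and Slc11a1.

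Laser was followed by higher Hmox1 in both genotypes and by higher Slc11a1 in wild type, whereas ferritin, ferroportin, the ferroxidases, transferrin and its receptor did not pass the test in either genotype. In wild type, 2 of 10 genes passed an adjusted p of 0.05, both higher, beside 5.28% of all 19950 genes tested (4.23% higher and 1.05% lower). In Ceacam1-/-, 1 of 10 passed, also higher, beside 3.72% of all genes (2.07% higher and 1.65% lower). The median log2 fold change of the 10 genes was 0.39 in wild type and -0.13 in Ceacam1-/-, with -0.10 and 0.02 over all genes. Without the photoreceptor-rich libraries these medians were 0.41 and 0.29, beside -0.075 and -0.001 over all genes. Groups with and without laser did not overlap for 2 of the 10 genes in wild type, where 6.25% of all genes did not overlap, and for 1 in Ceacam1-/-, where 2.13% did not. Fold changes are on the log2 scale of the normalized count plus 1.

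Hmox1 (chr8:75820241-75827217, plus strand, 5 exons) encodes the inducible enzyme that opens the heme ring and releases iron. Wild type libraries without laser had 314, 215, 422 and 303 normalized counts, and those with laser ranged from 1211 to 4232 (median 1831, n = 9). Every laser library was above every library without laser. The difference was 6.44-fold (95% interval 4.10 to 10.1; log2 fold change 2.69 ± 0.32, SE; adjusted p = 1.32e-05), and 20 genes had a lower p. In Ceacam1-/-, libraries without laser had 188, 316, 292 and 354 normalized counts of Hmox1 and those with laser ranged from 442 to 1511 (median 1382, n = 7). These groups did not overlap either, and the difference was 4.0-fold (95% interval 2.49 to 6.43; log2 fold change 2.00 ± 0.33; adjusted p = 0.00145). Within the Ceacam1-/- laser group, Hmox1 was lowest in photoreceptor-rich libraries 15 and 18, at 442 and 861, while photoreceptor-rich library 14, at 1425, lay within the range of the 4 libraries outside that set (1340 to 1511). Without the 5 photoreceptor-rich libraries, the log2 fold change was 2.70 in wild type (adjusted p = 6.19e-06) and 2.16 in Ceacam1-/- (adjusted p = 0.000204). In that setting 8.39% of all 19596 genes tested were called in wild type and 14.9% in Ceacam1-/-.

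Slc11a1 (chr1:74414303-74425448, plus strand, 15 exons) encodes NRAMP1, a metal transporter of macrophage phagosomes. In wild type it was at 186, 167, 315 and 188 normalized counts without laser and at 469 to 1072 with laser (median 868, n = 9). The groups did not overlap and differed 3.76-fold (95% interval 2.13 to 6.63; log2 fold change 1.91 ± 0.40; adjusted p = 0.00463). In Ceacam1-/- it was at 150, 181, 169 and 232 without laser and at 646, 714, 1004, 624, 242, 177 and 134 in laser libraries 4, 5, 6, 7, 14, 15 and 18. The first 5 of these were above every library without laser, library 14 only narrowly, while library 15 lay within the range without laser and library 18 below it. Libraries 14, 15 and 18 are the photoreceptor-rich ones. Over all libraries the log2 fold change in Ceacam1-/- was 1.14 ± 0.41 and did not pass the test (adjusted p = 0.116). It was 1.41 without library 18 alone (adjusted p = 0.0319) and 1.92 without the 5 photoreceptor-rich libraries (adjusted p = 0.000114), where wild type had 1.86 (adjusted p = 4.03e-05).

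Both genes are expressed in macrophages, and a list of myeloid markers rose with them. Of the 10 markers, 9 were called higher after laser in wild type and 6 in Ceacam1-/-, with none lower. Their sum went from a mean of 6831 ± 2189 to 25804 ± 5813 normalized counts in wild type and from 7923 ± 991 to 19938 ± 9950 in Ceacam1-/- (27508 without photoreceptor-rich libraries). The most abundant of them was Csf1r without laser and Fcer1g with laser. No myeloid marker was at 0 throughout a group. Slc11a1 was 2.78% to 3.93% of this sum without laser and 2.11% to 4.49% with laser in wild type, which differed by 0.983-fold (two-sided exact permutation p = 0.899). In Ceacam1-/- the fold difference of Slc11a1 relative to the sum was 1.00 (exact permutation p = 1). Without the photoreceptor-rich libraries it was 1.14, with 2.25% to 2.48% without laser and 2.49% to 3.01% with laser (exact permutation p = 0.0571). Hmox1 went from 3.59% to 6.62% of the myeloid sum (median 4.40%) to between 5.46% and 11% (median 7.85%) in wild type, a 1.68-fold difference (exact permutation p = 0.00559, 0.0121 after adjustment over 8 such tests). In Ceacam1-/- it went from a median of 3.83% to 5.69%, 1.81-fold higher (exact permutation p = 0.0485, adjusted 0.0647). Without the photoreceptor-rich libraries the Hmox1 share in wild type was 1.9-fold higher, 3.59% to 4.52% against 5.46% to 11% (exact permutation p = 0.00455, adjusted 0.0121). In Ceacam1-/- it was then 1.33-fold higher, 3.78% to 4.13% against 4.15% to 5.94% (exact permutation p = 0.0571, adjusted 0.0653). These ratios were added after seeing the data, and the part of myeloid cell number in the levels of Hmox1 and Slc11a1 was not tested beyond them.

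**Figure D2:**
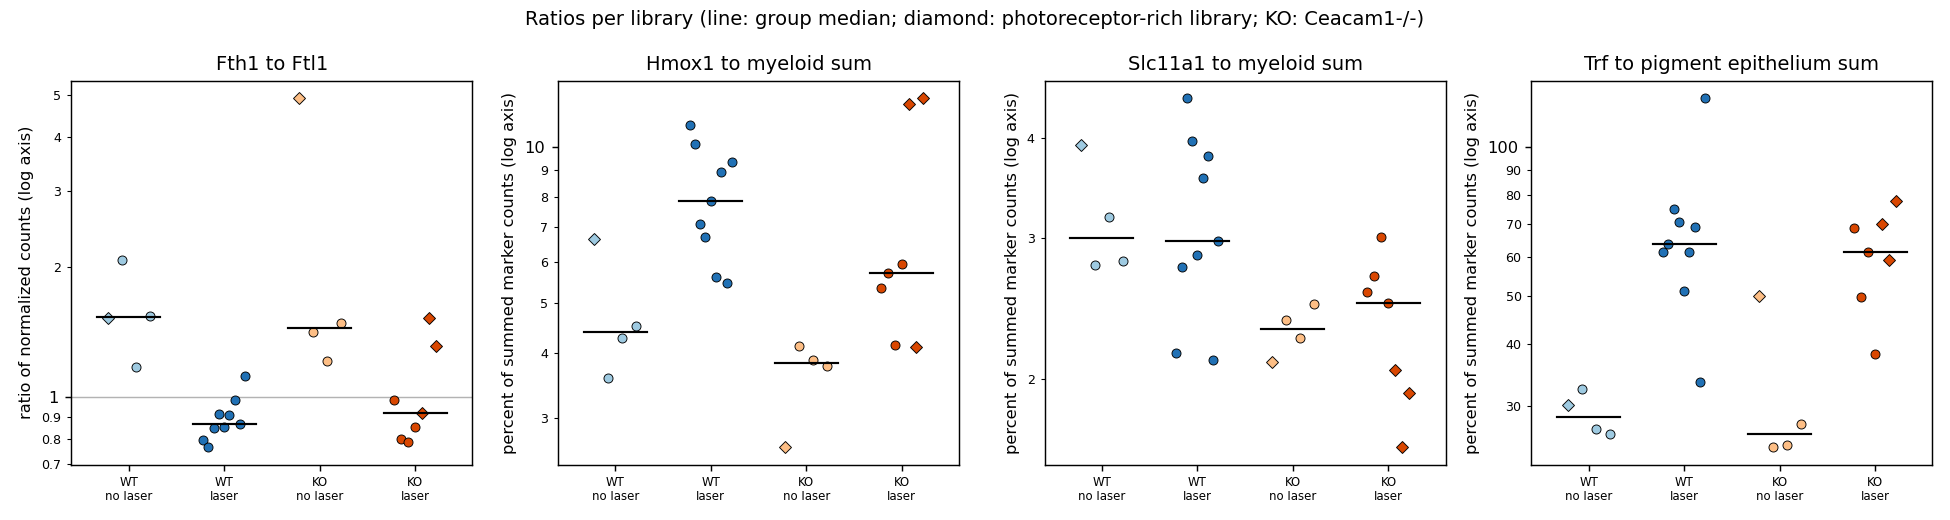
The ratio of Fth1 to Ftl1, Hmox1 and Slc11a1 as percent of the summed myeloid markers, and Trf as percent of the summed pigment epithelium markers (log axes), 1 point per library with the group median as a line and photoreceptor-rich libraries as diamonds. The ferritin ratio lay at or above 1.17 in every library without laser and at or below 1.12 in every wild type laser library, Slc11a1 overlapped between groups, and Trf was at or above 33.5% in laser libraries and at or below 32.5% in wild type libraries without laser.

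Hpx (chr7:105240817-105249344, minus strand, 10 exons), the plasma heme carrier made chiefly by the liver, was near the lower end of the measured range. Its means were 19 ± 6.67 and 16.8 ± 10.7 normalized counts in wild type without and with laser and 25.3 ± 17 and 19.2 ± 10.6 in Ceacam1-/-. All groups overlapped, and the log2 fold changes with laser were -0.32 (adjusted p = 0.769) and -0.18 (adjusted p = 0.887). The 6 hepatocyte genes listed summed to a mean of at most 21.6 in any group, and Serpina1a was at 0 throughout every group. Blood was present in all groups: erythroid genes, led by Hba-a2, summed to a mean of 2989 in wild type without laser and 5444 with laser, and to 5037 and 10282 in Ceacam1-/-, with 0 of the 5 tested called in either genotype.

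The ferritin genes Fth1 (chr19:9957911-9962462, plus strand, 4 exons), whose subunit oxidizes iron, and Ftl1 (chr7:45107367-45109308, minus strand, 4 exons), whose subunit helps iron to mineralize, did not move alike. In wild type, Fth1 was at 58741, 80278, 104348 and 72008 normalized counts without laser and at 68715 to 123940 with laser (median 81975). Ftl1 was at 38648, 38707, 89363 and 46784 without laser and at 61546 to 162075 with laser (median 94559). The Fth1 groups overlapped almost wholly (log2 fold change 0.18 ± 0.29, adjusted p = 0.755), and for Ftl1 only library 26, the highest without laser, reached into the laser range (0.97 ± 0.39, adjusted p = 0.154). When the fit held the wild type libraries alone, Ftl1 passed the test (0.97 ± 0.29, adjusted p = 0.0419). In Ceacam1-/-, Fth1 was at 161586, 74169, 127331 and 93812 without laser and at 32980 to 94959 with laser (median 77560), with a log2 fold change of -0.81 ± 0.30 (adjusted p = 0.133). Ftl1 was at 32975, 52777, 105253 and 63495 without laser and at 27948 to 120447 with laser (median 88025), a log2 fold change of 0.10 ± 0.40 (adjusted p = 0.908). The lowest 3 Fth1 values of the Ceacam1-/- laser group were those of the photoreceptor-rich libraries, and without these libraries the log2 fold changes in Ceacam1-/- were -0.17 for Fth1 and 0.50 for Ftl1.

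Taken as a ratio within each library, ferritin transcripts leaned from heavy to light after laser in wild type. In Ceacam1-/- the mean ratio was also lower with laser but did not pass the test after adjustment. Fth1 was 1.17 to 2.07 times Ftl1 in wild type without laser (median 1.53) and 0.765 to 1.12 times with laser (median 0.867), without overlap. The mean ratio was 1.74-fold lower with laser (two-sided exact permutation p = 0.0014, the smallest that 4 against 9 libraries can give; 0.0112 after adjustment over 8 ratio tests). In Ceacam1-/- the ratio ranged from 1.21 to 4.90 without laser, the highest in library 23, and from 0.788 to 1.52 with laser, 1.88-fold lower (exact permutation p = 0.0212, adjusted 0.0848). Without the photoreceptor-rich libraries it was 1.60-fold lower in Ceacam1-/- and the groups no longer overlapped (exact permutation p = 0.0286, the smallest that 3 against 4 libraries can give, adjusted 0.114), and 1.75-fold lower in wild type (exact permutation p = 0.00455, adjusted 0.0364). The ratio did not pass the test between genotypes, either without laser (1.21-fold higher in Ceacam1-/-, exact permutation p = 0.83) or with laser (1.12-fold higher, exact permutation p = 0.267). Both directions turned without the photoreceptor-rich libraries, to 1.14-fold lower without laser and 1.04-fold lower with laser (exact permutation p = 0.5 and 0.536). Ftl1 shares sequence with its annotated pseudogene Ftl1-ps1, which was assigned a mean of 4367 normalized counts, 5.55% of the Ftl1 value, so a part of the Ftl1 reads is uncertain. With each gene summed with its pseudogenes, the log2 difference of the ratio in wild type was -0.80, as it was without them.

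Slc40a1 (chr1:45947211-45965683, minus strand, 8 exons) encodes ferroportin, the sole known exporter of iron from cells. Wild type libraries had 505, 930, 673 and 857 normalized counts without laser and 324 to 792 with laser (median 572), and Ceacam1-/- libraries 458, 721, 959 and 331 without laser and 223 to 612 with laser (median 384). The ranges overlapped in both genotypes and the log2 fold changes were -0.40 ± 0.30 (adjusted p = 0.460) and -0.53 ± 0.31 (adjusted p = 0.353). Slc40a1 amounted to 6.81% to 15.5% of the myeloid sum without laser and 0.843% to 3.46% with laser in wild type (5.08-fold lower, exact permutation p = 0.0014, adjusted 0.0056). In Ceacam1-/- the share was 3.53% to 12.7% without laser and 1.45% to 4.69% with laser, ranges that overlapped (3.20-fold lower, exact permutation p = 0.00606, adjusted 0.0121). Without the photoreceptor-rich libraries the laser range in Ceacam1-/- was 1.45% to 2.44%, without overlap. The share was then 3.94-fold lower and did not pass after adjustment (exact permutation p = 0.0286, the smallest these libraries can give, adjusted 0.0572). In wild type it was then 5.12-fold lower (exact permutation p = 0.00455, adjusted 0.0121). A share moves with both of its parts. The myeloid sum itself stood at means of 6831 without and 25804 with laser in wild type. In Ceacam1-/- it stood at 7923 and 19938. Slc40a1 itself did not pass the test in either genotype. A rise of the sum alone lowers the share, so the p-values of the shares do not test Slc40a1 itself. How much each part contributed was not tested. Ferroportin is made by other cells of the tissue as well as by macrophages, and which cells the transcripts came from was not tested.

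The ferroxidases Cp (chr3:20011090-20063930, plus strand, 19 exons), secreted or anchored to the membrane, and Heph (chrX:95498965-95621010, plus strand, 22 exons), a membrane protein, oxidize the exported iron so that transferrin can bind it. Cp was at 2916, 2187, 2486 and 1895 normalized counts in wild type without laser and at 1300 to 5053 with laser (median 3814). Of the 9 laser libraries, 8 were above all 4 without laser and library 12 was below them, with a log2 fold change of 0.58 ± 0.29 (adjusted p = 0.260). Cp in Ceacam1-/- was at 3134, 2665, 2152 and 1861 without laser and at 2132 to 6242 with laser (median 3821; log2 fold change 0.53 ± 0.30, adjusted p = 0.334). Heph had means of 400 ± 126 and 514 ± 334 in wild type without and with laser and of 275 ± 73.3 and 256 ± 60.3 in Ceacam1-/-. Its groups overlapped, with log2 fold changes of 0.19 (adjusted p = 0.771) and -0.10 (adjusted p = 0.900), and the 2 highest values, 1258 and 844, were those of wild type laser libraries 13 and 16.

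Trf (chr9:103081200-103107814, minus strand, 17 exons), the iron carrier, was the third most abundant of the 10 per kilobase in wild type without laser. It was at 70378, 37916, 121667 and 71221 normalized counts in wild type without laser and at 61358 to 214267 with laser (median 176681), where libraries 1, 2 and 17 lay at 61358, 88573 and 73812 and the other 6 at 160951 or above. In Ceacam1-/- it was at 88528, 69654, 119782 and 28446 without laser and at 72240, 66200, 106344, 74866, 27334, 18708 and 19332 in laser libraries 4, 5, 6, 7, 14, 15 and 18. The groups overlapped in both genotypes, with log2 fold changes of 1.01 ± 0.50 in wild type (adjusted p = 0.258) and -0.59 ± 0.52 in Ceacam1-/- (adjusted p = 0.551, and 0.34 without the photoreceptor-rich libraries). The pigment epithelium is a known source of transferrin in the eye, and the 8 markers of it, led by Rgr and none at 0 throughout a group, summed to means of 268373 and 232801 in wild type without and with laser and to 260276 and 100551 in Ceacam1-/-. None of the 8 markers was called in either genotype. Relative to this sum, Trf went from 26.3% to 32.5% without laser to 33.5% to 126% with laser in wild type, 2.23-fold higher without overlap (exact permutation p = 0.0014, adjusted 0.0056). In Ceacam1-/- it went from 24.7% to 50% without laser to 38.1% to 77.9% with laser, 1.95-fold higher (exact permutation p = 0.00909, adjusted 0.0145). The 50% was that of photoreceptor-rich library 23. Without the photoreceptor-rich libraries the ranges in Ceacam1-/- were 24.7% to 27.5% and 38.1% to 68.5%, without overlap. The ratio was then 2.07-fold higher with laser (exact permutation p = 0.0571, adjusted 0.0653). The ratio moves with both of its parts, and in Ceacam1-/- the mean sum was 260276 without and 100551 with laser while Trf itself had a log2 fold change of -0.59.

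Tfrc (chr16:32427556-32451612, plus strand, 19 exons), the receptor for iron-loaded transferrin, ran the other way in wild type. It was at 1998, 2123, 1046 and 2908 normalized counts without laser and at 522 to 1818 with laser (median 935), so that 3 of the 4 libraries without laser were above all 9 with laser. The log2 fold change was -0.85 ± 0.35 (adjusted p = 0.164). In Ceacam1-/- Tfrc was at 1829, 1709, 1650 and 808 without laser and at 820, 897, 912, 1054, 2237, 1449 and 2429 in laser libraries 4, 5, 6, 7, 14, 15 and 18 (log2 fold change -0.16 ± 0.36, adjusted p = 0.834). The 3 highest laser values were those of the photoreceptor-rich libraries, without which the log2 fold change was -0.52. The ratio of Tfrc to Fth1 was 2.03-fold lower with laser in wild type (exact permutation p = 0.0559, adjusted 0.149) and 1.57-fold higher in Ceacam1-/- (exact permutation p = 0.355), neither past the threshold. Without the photoreceptor-rich libraries the ratio in Ceacam1-/- was 1.27-fold lower with laser (exact permutation p = 0.486).

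**Figure D3:**
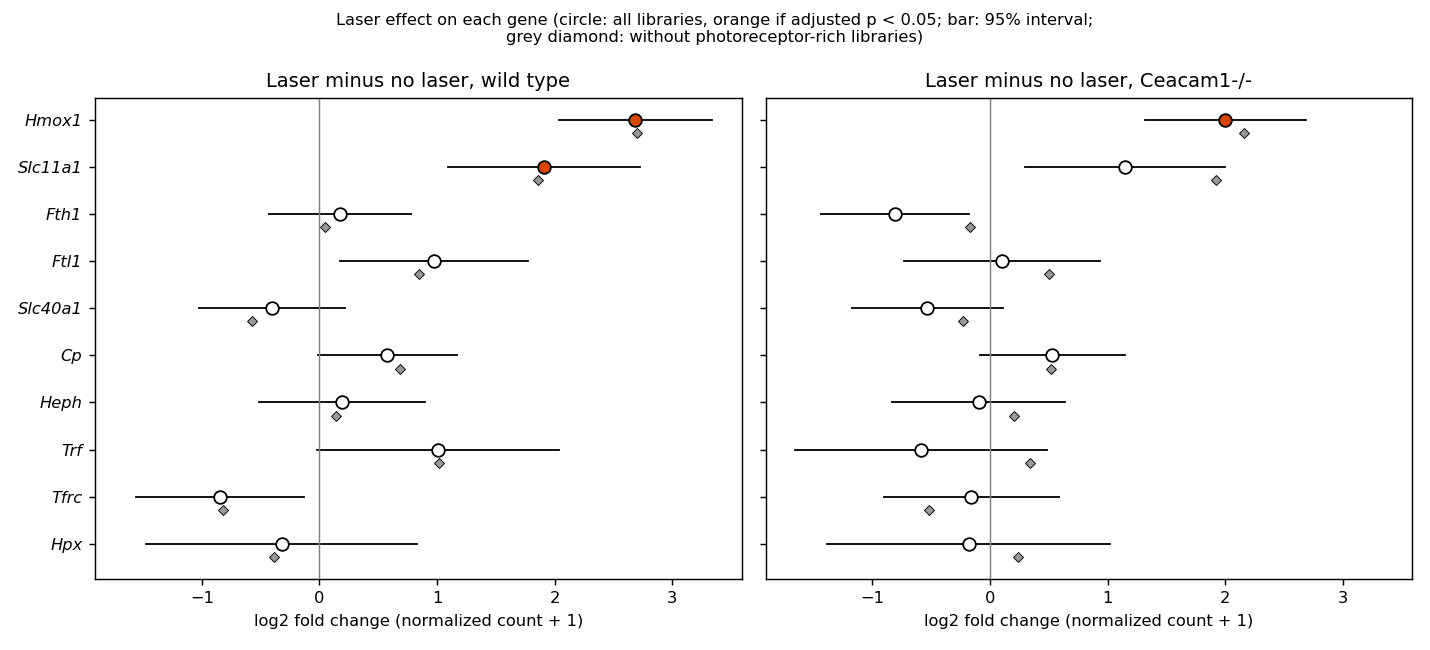
Log2 fold change with laser for each gene in wild type (left) and Ceacam1-/- (right), with the 95% interval as a bar, orange where adjusted p passed 0.05, and the value without photoreceptor-rich libraries as a grey diamond. Hmox1 was called in both genotypes and Slc11a1 in wild type, and in Ceacam1-/- the diamond of Slc11a1 lay at 1.92 against 1.14 over all libraries.

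In 1 group, the photoreceptor-rich libraries stood at one end of the range for several genes. In the Ceacam1-/- laser group the 3 photoreceptor-rich libraries were the lowest of the 7 for Fth1, Ftl1, Slc40a1, Heph, Trf and Slc11a1 and the highest for Tfrc. The groups without laser shared this in part. Photoreceptor-rich library 21 was the lowest of the wild type group without laser for Fth1 (58741), Ftl1 (38648) and Slc40a1 (505). Photoreceptor-rich library 23, also rich in myelin genes, was the lowest of the Ceacam1-/- group without laser for Ftl1 (32975) and Slc11a1 (150) and the highest for Tfrc (1829). For Fth1, however, library 23 had the highest value of all 24 libraries, at 161586. For Trf, it (88528) was the second highest of the Ceacam1-/- group without laser, and photoreceptor-rich library 21 (70378) was above library 22 (37916) in the wild type group without laser. The part of photoreceptor content in the differences between groups was not tested beyond leaving these libraries out and adding the summed list as a covariate. With that covariate Slc11a1 in Ceacam1-/- had a log2 fold change of 1.51 (adjusted p = 0.0194).

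**Figure D4:**
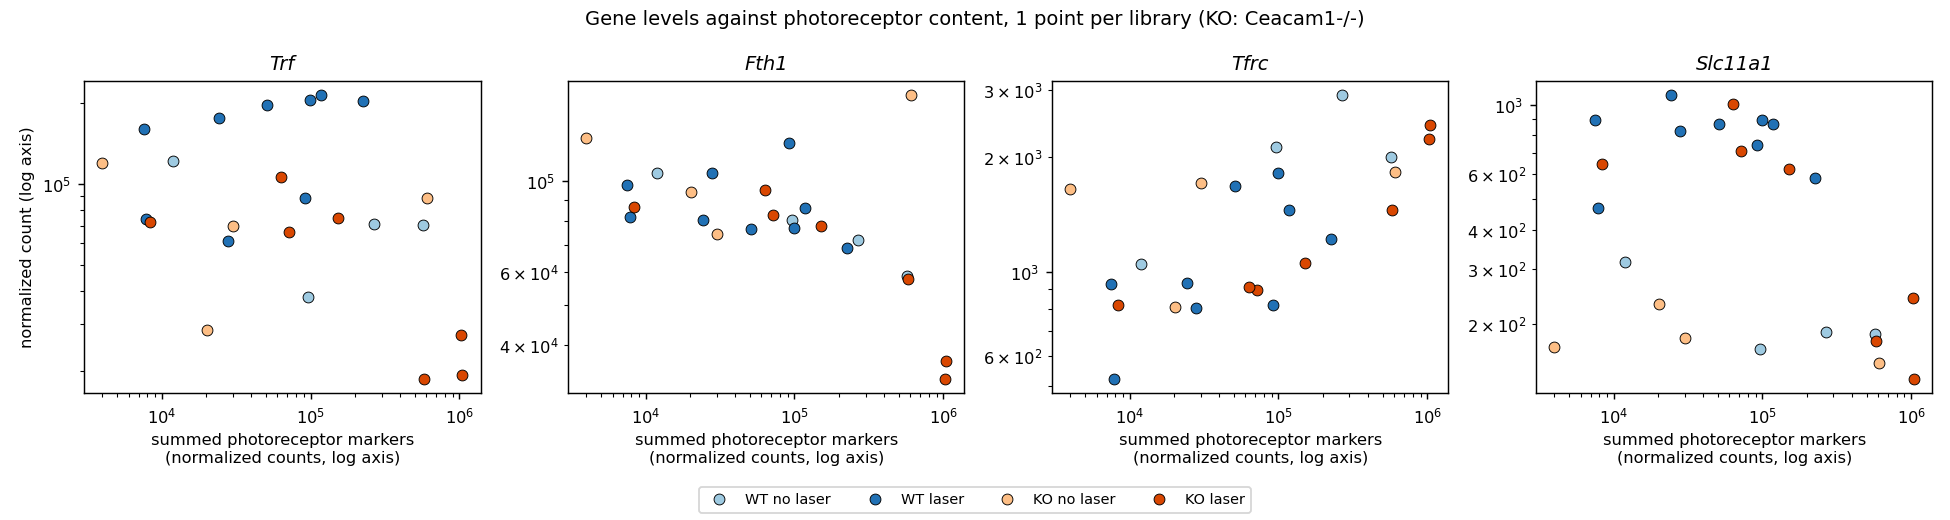
Normalized counts of Trf, Fth1, Tfrc and Slc11a1 against the summed photoreceptor markers, both on log axes, with 1 point per library coloured by group. The 3 Ceacam1-/- laser libraries with sums of 574897 to 1049413 had the lowest Trf of all 24 libraries, at 18708 to 27334.

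The genotype comparisons asked whether loss of Ceacam1 shifts iron and heme genes in unlasered choroid and after laser. They reuse the same groups as the laser comparisons, so the values are given side by side only. Without laser, 0 of the 10 genes passed, as did 0% of all 20057 genes tested with limma. At an unadjusted p under 0.05 these counts were 0 of 10 and 1.53% of all genes. The study did report genes past an adjusted p of 0.05 in this comparison, with DESeq2 and sex as a covariate. The 0% thus holds for the present fit only. The log2 fold changes of the 10 genes (Ceacam1-/- minus wild type) ran from -0.53 ± 0.29 for Heph to 0.50 ± 0.41 for Fth1, with a median of -0.08 beside -0.02 over all genes, and every group pair overlapped. For Hmox1 the 95% interval of the fold difference was 0.578 to 1.46 and for Slc11a1 0.556 to 1.37, so differences within these intervals are not excluded. The intervals are not limits of detection, since Ceacam1 itself was 3.87-fold lower in this comparison at an adjusted p of 0.999.

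With laser, 0 of the 10 genes passed the adjusted threshold between genotypes, beside 0.0202% of all 19757 genes tested. At an unadjusted p under 0.05, 4 of 10 did (Trf, Hmox1, Heph and Slc11a1), all lower in Ceacam1-/-, but so did 22.7% of all genes. Trf was 3.10-fold lower in Ceacam1-/- (95% interval of the log2 fold change -2.52 to -0.75, adjusted p = 0.111), Hmox1 1.75-fold (adjusted p = 0.150), Heph 1.77-fold (adjusted p = 0.164) and Slc11a1 1.95-fold (adjusted p = 0.167). The median over the 10 genes was -0.56, beside 0.01 over all genes. All of these ranges overlapped between genotypes. Without the 3 photoreceptor-rich Ceacam1-/- libraries the log2 fold changes were -0.83 for Trf (adjusted p = 0.548), -0.46 for Hmox1 (adjusted p = 0.683), -0.57 for Heph (adjusted p = 0.724) and -0.09 for Slc11a1 (adjusted p = 0.953), and the median over the 10 genes was -0.12, beside 0.025 over all genes. Markers of several cell types were also at other levels in the 2 laser groups, although 0 of them passed the test. All 8 pigment epithelium markers (most abundant Rgr) had log2 fold changes below 0 in Ceacam1-/- (median -1.54), and their summed normalized counts averaged 232801 in wild type and 100551 in Ceacam1-/-, or 152100 without the photoreceptor-rich libraries. Values were likewise below 0 for all 8 skeletal muscle markers (most abundant Acta1, median -1.41, summed means 296718 and 131330, or 167102 without these libraries) and all 6 melanocyte markers (most abundant Dct, median -1.05, summed means 103462 and 85442, or 137460). The same held for all 10 endothelial markers (most abundant Plvap, median -0.52, summed means 39875 and 30694, or 42003) and all 10 myeloid markers (most abundant Fcer1g, median -0.48, summed means 25804 and 19938, or 27508). All 10 photoreceptor markers had values above 0 (median 2.08, summed means 72432 and 419988, or 73892), as had all 5 tested of the 10 erythroid markers (most abundant Hba-a2, median 0.70, summed means 5444 and 10282, or 15876). None of these markers was at 0 throughout either laser group, and their part in the values of Trf, Hmox1, Heph and Slc11a1 was not tested beyond leaving out the photoreceptor-rich libraries.

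Whether laser acted differently in the 2 genotypes was tested by the interaction. Of the 10 genes, 0 passed, as did 0% of all 19950 genes, while at an unadjusted p under 0.05 the counts were 2 of 10 (Fth1 and Trf) and 6.22% of all genes. Hmox1 had an interaction of -0.69 ± 0.46 on the log2 scale (adjusted p = 0.641) and Slc11a1 one of -0.77 ± 0.57 (adjusted p = 0.655), so the call of Slc11a1 in wild type alone is not shown to be a difference between genotypes. Without the photoreceptor-rich libraries these interactions were -0.55 ± 0.43 for Hmox1 (adjusted p = 0.865) and 0.064 ± 0.36 for Slc11a1 (adjusted p = 0.981). The values for Fth1 (-0.99 ± 0.42) and Trf (-1.60 ± 0.72) had an adjusted p of 0.640 each and were -0.22 and -0.67 without the photoreceptor-rich libraries.

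A wider list of 64 genes of iron and heme handling, in 11 groups by role, was examined next. Of these, 60 were tested in each comparison. After laser 3 were called in wild type, beside 5.28% of all genes, and 2 in Ceacam1-/-, beside 3.72%. All of these were higher, and both counts were near the share over all genes, with median log2 fold changes of 0.06 and -0.04. None was called between genotypes or in the interaction.

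Among 11 genes of iron uptake and reduction, Steap1, a member of the metalloreductase family, was called in both genotypes. It was at 43.5, 12.2, 16.6 and 22 normalized counts in wild type without laser and at 68.1 to 432 with laser (median 136), 6.82-fold higher (adjusted p = 0.000122). In Ceacam1-/- it was at 13.3, 37.8, 10.4 and 20.5 without laser and at 70.5 to 132 with laser (median 99.9), 5.19-fold higher (adjusted p = 0.00254). The groups did not overlap in either genotype, also counting the photoreceptor-rich libraries. Of the 4 genes of siderophore and lactoferrin binding, Lcn2, the lipocalin that binds bacterial siderophores, was called in both. It was at 33.9, 29.8, 13 and 25.2 in wild type without laser and at 137 to 670 with laser (median 191), 9.80-fold higher (adjusted p = 0.00144), and 11.9-fold higher in Ceacam1-/- (adjusted p = 0.00229), where its range was 7.91 to 109 without laser and 179 to 1375 with laser. Neutrophils and stressed epithelia and glia are known sources of Lcn2. The 7 neutrophil genes, led by Camp without laser and S100a8 with laser, summed to means of 139 and 316 normalized counts in wild type without and with laser and to 180 and 387 in Ceacam1-/-. Of these genes 3 were tested and 1 was called higher in each genotype, Elane and Ly6g were at 0 throughout both groups without laser, and their part in the Lcn2 difference was not tested.

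Heme breakdown beyond Hmox1 held the third call. Blvra, biliverdin reductase A, which turns the product of heme oxygenase into bilirubin, was at 574, 522, 457 and 467 normalized counts in wild type without laser and at 686 to 1060 with laser (median 763), 1.60-fold higher without overlap (log2 fold change 0.68 ± 0.14, adjusted p = 0.00577). In Ceacam1-/- its log2 fold change was 0.53 ± 0.15 (adjusted p = 0.0509). Hmox2, the constitutive heme oxygenase, had means of 1324 ± 62.3 and 1522 ± 256 in wild type without and with laser and of 1331 ± 204 and 1311 ± 262 in Ceacam1-/-, with log2 fold changes of 0.19 (adjusted p = 0.507) and -0.04 (adjusted p = 0.916).

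No gene was called in the other 8 groups by role, each of which is represented here by the member with the highest mean normalized count over all libraries, not scaled by length. Pcbp1, an iron chaperone that loads ferritin, had log2 fold changes with laser of 0.20 in wild type and 0.12 in Ceacam1-/- (adjusted p = 0.318 and 0.610). Fbxl5, the iron sensor that marks iron regulatory protein 2 for degradation, had -0.42 and 0.61 (adjusted p = 0.577 and 0.443), and Nfe2l2, the factor NRF2 that activates Hmox1, had 0.32 and 0.01 (adjusted p = 0.393 and 0.984). Lrp1, a receptor that takes up heme bound to hemopexin, had 0.51 and -0.04 (adjusted p = 0.375 and 0.953). Fech, which inserts iron into heme, had -0.50 and -0.65 (adjusted p = 0.236 and 0.134), and Cisd1, an iron-sulfur protein of the outer mitochondrial membrane, had -0.66 and -0.72 (adjusted p = 0.110 and 0.0985). Hephl1, a relative of hephaestin, was at 0 in some libraries of every group and had 1.41 and -0.80 (adjusted p = 0.557 and 0.776).

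Hjv, hemojuvelin, a coreceptor in the control of hepcidin that is made in muscle and liver, had the highest mean normalized count of its group. Its mean was 4679 ± 1555 normalized counts in wild type without laser and 2104 ± 765 with laser, and 5308 ± 4283 and 895 ± 602 in Ceacam1-/- (log2 fold changes -1.20 and -2.23, adjusted p = 0.281 and 0.0536). The summed skeletal muscle genes stood at means of 535948 and 296718 in wild type without and with laser and at 628851 and 131330 in Ceacam1-/-, with 0 of 8 called in either genotype and none at 0 throughout a group. Their part in the Hjv values was not tested.

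**Figure D5:**
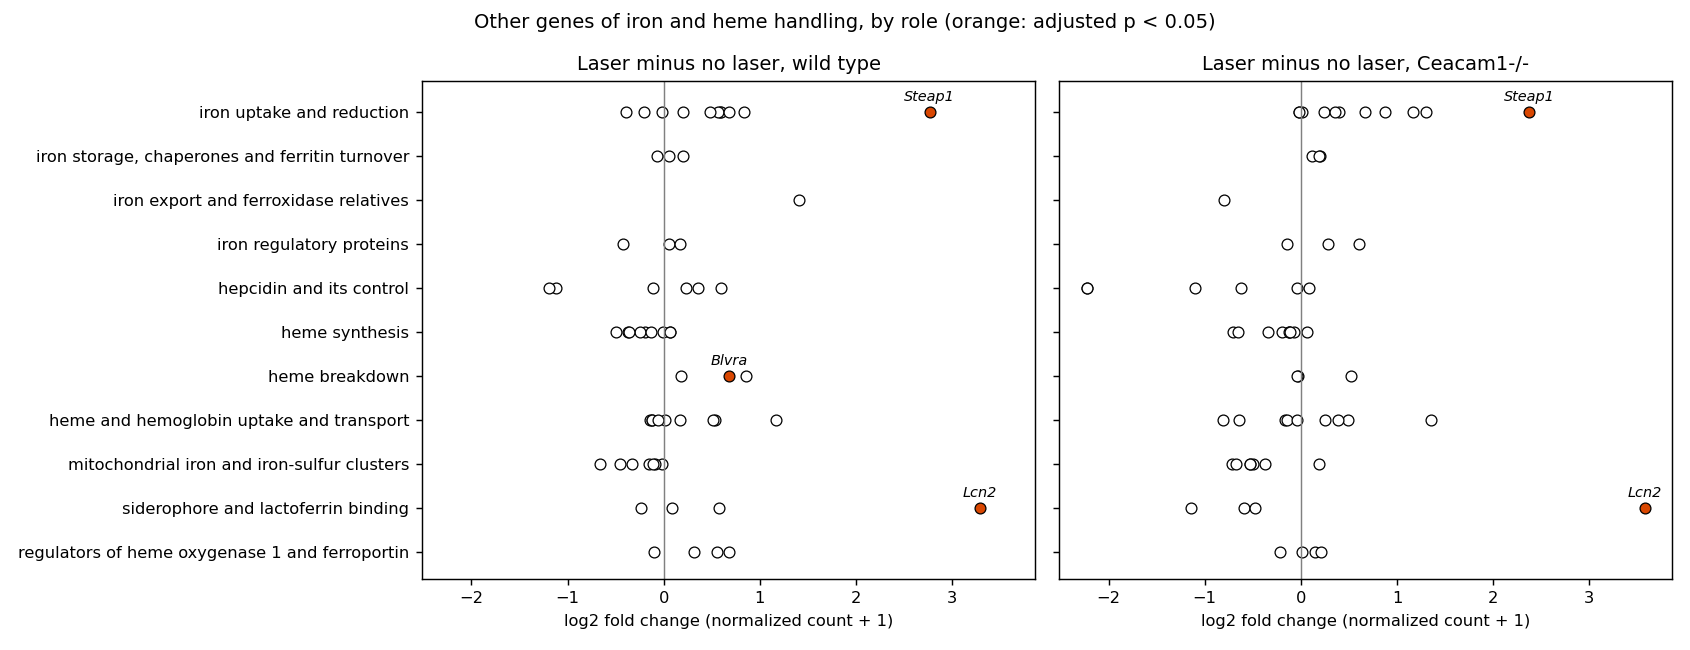
Log2 fold change with laser of the 60 tested genes beyond the 10, 1 circle per gene, in 11 rows by role, for wild type (left) and Ceacam1-/- (right). Orange circles passed an adjusted p of 0.05: Steap1, Blvra and Lcn2 in wild type, and Steap1 and Lcn2 in Ceacam1-/-.

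Without the 5 photoreceptor-rich libraries, 5 of the wider list were called in wild type and 14 in Ceacam1-/-, beside the 8.39% and 14.9% of all genes given above. In Ceacam1-/- those higher were Steap1, Steap2, Steap3, Steap4, Scara5, Hfe, Hp, Blvra and Lcn2, and those lower were Hjv, Erfe, Cisd1, Nfs1 and Slc25a28. The metalloreductase relatives Steap3 and Steap2 had log2 fold changes of 1.58 ± 0.30 (adjusted p = 0.00161) and 1.58 ± 0.32 (adjusted p = 0.00239), and Hp, haptoglobin, which binds free hemoglobin, had 2.08 ± 0.61 (adjusted p = 0.0268). Erfe, erythroferrone, a hormone that lowers hepcidin, had -3.30 ± 0.59 (adjusted p = 0.000899). In wild type the calls were Steap1, Steap2, Lcn2, Blvra and Bach1, the repressor of Hmox1, which had 0.63 ± 0.18 (adjusted p = 0.0351).

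Apart from group means, each gene kept company with others across the libraries. After subtracting the mean of its group, the gene with the pattern closest to that of Trf was Flvcr2 (Pearson r = 0.954 over 24 libraries, among 15545 genes with a mean of at least 50), a gene of the wider list, and the closest to Heph was Aco1 (r = 0.924), the gene for iron regulatory protein 1. Ftl1 was closest to its pseudogene Ftl1-ps1 (r = 0.984), then to Cnpy2 (r = 0.976). Slc11a1 was closest to Gusb, Tnfrsf1b and Gpnmb (r = 0.937, 0.936 and 0.933), and Cp to Slc1a3 (r = 0.851), the glutamate transporter of Müller glia. For Fth1 the closest was Limd2 (r = 0.889), for Slc40a1 Epdr1 (r = 0.897), for Tfrc Ttc7b (r = 0.928) and for Hmox1 Ccdc86 (r = 0.793), the weakest of the leading values. These correlations are descriptions, since the genes share the same libraries and tissue composition, and Hpx was below the minimum mean for them.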

How the data were processed

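Total RNA of choroid was made into SMART-Seq libraries by the authors, whose processing notes name FastQC 0.11.5, Salmon 1.10.3 and DESeq2 1.44.0. The deposited signal values are normalized counts per gene, which the authors made from Salmon estimates against GRCm39 (GENCODE release M35) with factors for library size and transcript length. Read depth was not given in the sources used here and whole reads were not recovered, so no count model was run. The study removed 1 outlier library, not named in its text, and used sex as a covariate, which the labels do not give.

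The labels gave the group of each library. Log2 of the normalized count plus 1 was fitted in limma (version 3.58.1, R 4.3.3) with the trend option, keeping genes whose mean over the fitted libraries reached 10. P-values were adjusted over all genes tested by the Benjamini-Hochberg method (threshold 0.05). Laser contrasts and their interaction used all 24 libraries, genotype contrasts the 8 without or the 16 with laser. For ratios, exact permutation tests (two-sided) were used. The fit was tested on simulated data. Positions and transcripts came from GENCODE release M39 on GRCm39, which matched 99.1% of gene identifiers.

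The genes and lists were chosen with earlier results of these data known. Named were the 10 genes, each gene of the wider list past the threshold, the most abundant gene of each role list without a call, and for likeness up to 3 genes with the highest r. Alternatives were other pseudocounts, filters, scalings, variance settings, array weights, a Y-linked covariate, other sets of libraries fitted, and 1 library left out at a time. Leaving out photoreceptor-rich libraries (summed list over 500000), that list as a covariate, and ratios to marker sums were chosen after seeing the data.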

Additional observations from a re-analysis of the deposited data

Results flagged for a closer look

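For each of the 10 genes in each of the 4 groups, the highest and lowest library were compared with the rest of the group by Dixon's criterion at 95%, which by chance marks about 1 in 20 groups. Of 40 groups, 5 held such a library. Hmox1 reached 4232 normalized counts in library 1 of the wild type laser group. Ftl1 (89363) and Slc11a1 (315) were both far above the other wild type libraries without laser in library 26. In the wild type laser group, library 12 was far below the rest for Cp (1300) and far above them for Hpx (40.3).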

How the results depend on the processing

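Hmox1 stayed called in both genotypes and Slc11a1 in wild type under every alternative and without any single library. With array weights 6 of the 10 genes were called after laser in wild type (Ftl1, Cp, Trf and Tfrc besides), 2 in Ceacam1-/- and 1 (Trf, adjusted p = 0.040) between genotypes with laser. With the compared libraries alone 3 were called in wild type, Ftl1 besides. In Ceacam1-/- 2 were also called without photoreceptor-rich libraries, with photoreceptor content as covariate, and without library 18 (range 1 to 2 over single libraries). The wider list had 21 calls in wild type with array weights, 8 with the compared libraries alone, 5 without photoreceptor-rich libraries and 6 with the covariate, and in Ceacam1-/- 12, 1, 14 and 4, with 4 at a minimum mean of 50 (4.88% of all genes) and 4 with upper-quartile scaling (3.9%) (2 to 12 over single libraries, 12 without library 23, 4 without library 4 and 4 without library 15). All genes called numbered 1053 in wild type and 742 in Ceacam1-/-, against 6505 (32.6%) and 3551 (17.8%) with array weights, 2274 (11.6%) and 38 (0.187%) with the compared libraries alone, and 1645 (8.39%) and 2923 (14.9%) without photoreceptor-rich libraries, and 6.6% and 4.51% of all genes with the covariate (479 to 1257 and 148 to 2488 over single libraries, lowest without libraries 21 and 25, and in Ceacam1-/- highest without library 23). Between genotypes with laser 4 genes were called, 297 with array weights and 4 to 61 over single libraries. The cause was not tested.

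Values that turned sign did so without passing the test. After laser in Ceacam1-/-, Heph was 0.28 with array weights and 0.20 without photoreceptor-rich libraries, Trf 0.033 and 0.34, and Hpx 0.24 without these libraries and 0.20 with the covariate. The median of the 10 genes in that comparison, which was not tested, was 0.157 with array weights, 0.29 without these libraries and 0.084 with the covariate. In the interaction, Slc40a1 was 0.009 with array weights, 0.34 without photoreceptor-rich libraries and 0.14 with the covariate, Heph 0.062 and Slc11a1 0.064 without these libraries, Cp 0.017 with quantile normalization, and Hpx -0.017 with a pseudocount of 10, -0.08 with quantile normalization and -0.17 with array weights. Between genotypes without laser, Hmox1 was 0.035 with array weights and 0.082 without photoreceptor-rich libraries, Ftl1 -0.15 with the covariate, and Hpx -0.022 without these libraries and -0.12 with the covariate. Between genotypes with laser, Ftl1 was 0.028 without photoreceptor-rich libraries, Cp 0.070 and Hpx -0.001 with quantile normalization, and Tfrc -0.23 with array weights, -0.20 without these libraries and -0.16 with the covariate. Without these libraries the log2 difference of Fth1 to Ftl1 between genotypes was -0.19 without laser and -0.062 with laser, and that of Tfrc to Fth1 -0.35 for laser in Ceacam1-/- and -0.17 between genotypes with laser.

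Over single libraries left out, log2 values ranged in Ceacam1-/- with laser from -0.17 to 0.39 for Ftl1, -0.22 to 0.055 for Heph and -0.86 to 0.16 for Hpx, and in the interaction from -0.39 to 0.12 for Slc40a1, -0.23 to 0.077 for Cp and -0.54 to 0.48 for Hpx. Between genotypes without laser they ranged from -0.29 to 0.069 for Hmox1, -0.06 to 0.50 for Ftl1, -0.088 to 0.16 for Cp, -0.33 to 0.38 for Trf, -0.32 to 0.006 for Slc11a1 and -0.29 to 0.74 for Hpx, and with laser from -0.19 to 0.11 for Cp. The ratio of Fth1 to Ftl1 ranged from -0.18 to 0.49 between genotypes without laser and from -1.12 to -0.45 for laser in Ceacam1-/- (adjusted p = 0.0381 without library 15), and Tfrc to Fth1 from -1.45 to -0.78 for laser in wild type (adjusted p = 0.0364 without library 26). No paired analysis was possible because the labels do not link a library of 1 group to a library of another. With 4 libraries in each unlasered group, differences within the wide intervals given above were not excluded.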
